A study of Drosophila melanogaster with 6 samples.

Results

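The array that was used for HB10 cells, a Drosophila melanogaster line, carries 208 probes with a RefSeq non-coding RNA identifier (one that begins with NR_) among 32162 gene probes. These 208 probes, on 242 spots, stand for 173 RefSeq accessions and were selected by this identifier, whatever their signal. The choice of this set was made with earlier results of these data known. A probe was taken as detected where at least 50% of its spots were well above background on 2 or more of the 3 arrays of either temperature. By this criterion 103 of the 208 probes (49.5%) were detected, which stand for 91 accessions, against 18813 of the 32162 gene probes of the array (58.5%). Of the 208 probes, 162 matched a gene symbol in the RefSeq table, and all but 1 of these were of the types long non-coding RNA (108 probes), antisense RNA (41 probes) or structural small RNA (12 probes), the exception being a microRNA. The 79 detected probes with a symbol stand for 63 RNAs.

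HB10 cells were established from embryos with ubiquitous expression of activated Ras (UAS-Ras85D.V12 driven by Act5C-GAL4), and all cells compared here come from this single line. After 36 h at 24 °C, cells were cultured for another 24 h at 14 °C or at 24 °C before isolation of total RNA. Each temperature had 3 biological replicates with shared numbers, and Cy3-labelled cRNA of each was placed on an array of its own. The 2 probes for twist, a marker of adult muscle precursors, were above background on 6 of 6 arrays, and the probe for serpent, a hemocyte marker, on 0. For pannier, the other hemocyte marker that the study names, no probe could be named here.

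Non-coding RNAs act as RNA molecules rather than as templates for protein. Small structural RNAs build the spliceosome, guide chemical modification of other RNAs or take part in protein targeting and ribosome assembly. Long non-coding RNAs can organize nuclear bodies or chromatin, as Hsromega and the roX RNAs do in flies, or serve as precursors from which microRNAs and snoRNAs are cut. Antisense RNAs are transcribed from the strand opposite to another gene.

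On each array, 57.7 to 59.4% of 43602 gene spots were well above background, 0 were saturated, and 94 to 99 of the 208 non-coding RNA probes were above background. The 75th percentile of the signal was 1684.5, 923 and 1542 in replicates 1 to 3 at 14 °C, against 1394, 1470 and 1574.375 at 24 °C, so that replicate 2 at 14 °C was the dimmest array. The arrays lay on 2 slides, with replicate 1 of both temperatures on slide 1 and replicates 2 and 3 of both on slide 2. Levels given below are the processed log2 values of the authors for each array, in replicate order, whereas log2 fold changes (14 °C over 24 °C), their standard errors (SE) and adjusted p-values are from limma on the scanner signals, adjusted over all 18813 detected probes. A probe that passed had an adjusted p under 0.01, and one that also differed by at least 2-fold is called CoolUp or CoolDown.

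Which non-coding RNAs could be measured in HB10 cells? Of the 208 probes, 85 were above background on all 6 arrays and 97 on none. Detection held at both temperatures for 89 probes, at 14 °C alone for 8 and at 24 °C alone for 6. The mean level over 6 arrays ranged from 6.65 to 18.77 on the log2 scale (median 9.39) for the 103 detected probes, and from 6.32 to 6.74 for the 105 others. The 11 probes just inside the criterion had mean levels of 6.65 to 6.83, and the 8 just outside it, each above background on at most 1 array per temperature, had 6.52 to 6.74. The levels of these 19 probes therefore overlapped. The unnamed accession NR_026639 was above background on 0 arrays at 14 °C and on 3 at 24 °C. Its mean normalized log2 signals were 7.08 at 14 °C and 7.16 at 24 °C (adjusted p = 0.56), and it met the criterion through the 24 °C arrays alone.

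The share of detected probes varied between kinds of RNA. All 12 structural small RNA probes, all 6 probes for the roX RNAs, all 4 for Hsromega and all 4 for snoRNA host genes were detected. Of the antisense RNA probes, 16 of 41 (39%) were detected, and of the remaining RNAs 37 of 93 (39.8%). Neither probe for the Bithorax complex RNAs iab8 and bxd, transcripts from the Hox gene region that specifies posterior segments, was detected, and the probe for the microRNA gene mir-125 was not detected either. Among the 46 probes whose accessions had no symbol in the table, 24 were detected. Of these, 10 had a mean level above 16, for example NR_004022 (18.77) and NR_003994 (18.59). Their log2 fold changes were -0.04 (adjusted p = 0.84) and -0.01 (adjusted p = 0.95).

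By RefSeq annotation, the 63 named RNAs with a detected probe lie on chromosome arms 2L (10), 2R (9), 3L (11) and 3R (20) and on chromosomes 4 (1), X (11) and Y (1). Of these RNAs, 34 overlap a protein-coding gene, 7 a microRNA gene and 4 a snoRNA gene, while 19 overlap no other gene.

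To find out how the cool shift affected these transcripts, levels at 14 °C were compared with those at 24 °C. Higher levels at 14 °C were more frequent than lower ones. Of the 103 detected probes, 14 (13.6%) passed with higher levels at 14 °C, against 6.12% of all detected probes. Only 1 probe (0.971%) passed with lower levels at 14 °C, against 5.77% of all. There were 4 CoolUp probes (3.88%), against 0.59% of all detected probes, and 0 CoolDown probes, against 0.34% of all. Counted by RNA, 11 of the 63 named RNAs had a probe that passed with higher levels and 1 a probe that passed with lower levels, and the 4 CoolUp probes were for 4 RNAs. All 15 probes that passed had groups that did not overlap, and hence the same direction on either slide. Probes that passed were selected for a difference that is large against their spread, which favours separate groups. Neither property is therefore separate evidence, and no share of all detected probes is given to set this count against. The accessions without a symbol contributed 0 of the 15, with 4 of their 24 detected probes at an unadjusted p under 0.05.

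For most non-coding RNA probes the differences were small. Of the 103 probes, 90 had a log2 fold change within 0.5 of 0 in either direction, 59 were higher and 44 lower at 14 °C, and the median was 0.05, against -0.01 for all detected probes. At an unadjusted p under 0.05 there were 37 of the 103 probes, against 36.1% of all detected probes. Several probes stand for 1 RNA, and these probes are not independent.

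The number of probes that passed depended on the scaling of the arrays and on single arrays. With scaling to the median or to the 75th percentile in place of quantile normalization, 0 of the 103 probes passed and 0 of all detected probes were called, with 20 and 24 of the 103 at an unadjusted p under 0.05. When single arrays were left out, 8 probes (7.77%) passed if replicate 1 at 14 °C was the one omitted, against 6.36% of all detected probes. At 24 °C the omission of replicates 1, 2 and 3 left 8, 5 and 8 probes (7.77%, 4.85% and 7.77%), against 4.41%, 4.27% and 5.48% of all. With the scanner software's own corrected signal, 6 of the 15 kept their calls, namely the 4 CoolUp probes, lncRNA:mimi and scaRNA:MeU5-C46. The other 9, among them all 3 Hsromega and both Uhg3 probes, then had adjusted p-values of 0.0112 to 0.0297. The 4 CoolUp probes and probe 4 of Hsromega passed whichever array was left out. On slide 2 alone, with 4 arrays, asRNA:CR43465 and lncRNA:CR31044 were the 2 that passed (1.94%, against 0.356% of all), a setting that was chosen after seeing the data. For asRNA:CR43465 the log2 fold change was 3.49 (adjusted p = 0.0891) with scaling to the median and 2.75 (adjusted p = 0.0334) with scaling to the 75th percentile.

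The CoolUp probes comprised 2 antisense RNAs and 2 long non-coding RNAs. The antisense RNA asRNA:CR43465 on chromosome arm 2L had the largest rise of all 18813 detected probes. Its levels were 11.12, 11.03 and 10.67 at 14 °C, against 7.70, 7.78 and 7.69 at 24 °C. The arrays at 14 °C were thus all far above those at 24 °C, which were close to each other. The log2 fold change was 3.01 (SE 0.11, adjusted p = 1.39e-06), an 8.07-fold difference. With the scanner software's corrected signal it was 3.94, a 15.3-fold difference. The RNA overlaps Ucp4B, which encodes a mitochondrial carrier of the uncoupling protein family. In bulk RNA, more cells with a transcript and more of it per cell cannot be told apart.

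The X-linked lncRNA:CR43264, which overlaps the protein-coding gene CG15765, had levels of 14.03, 14.42 and 13.79 at 14 °C, against 12.56, 12.34 and 12.34 at 24 °C. The lowest array at 14 °C was above the highest at 24 °C. The log2 fold change was 1.65 (SE 0.15, adjusted p = 0.000128), a 3.14-fold difference that ranked 15th in size among rises of all detected probes.

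The third CoolUp RNA, lncRNA:CR31044 on 3R, overlaps mir-279 and mir-996, microRNAs that in flies limit the formation of carbon dioxide sensing neurons. Its probe for the accession NR_037768 had levels of 9.04, 8.88 and 8.80 at 14 °C, against 7.63, 7.34 and 7.51 at 24 °C, with a log2 fold change of 1.27 (SE 0.10, 95% interval 1.06 to 1.49, adjusted p = 5.3e-05). A second probe, for the accession NR_037769 of the same gene, differed much less. Its levels were 10.01, 9.96 and 10.13 at 14 °C, against 9.78, 9.79 and 9.90 at 24 °C, with a log2 fold change of 0.20 (SE 0.08, 95% interval 0.02 to 0.38, adjusted p = 0.11). With the scanner software's corrected signal the probe for NR_037768 had a log2 fold change of 2.23. The 2 intervals did not overlap, but the difference between the probes was not tested.

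The antisense RNA asRNA:CR32252 on 3L had levels of 9.24, 8.77 and 8.97 at 14 °C, against 7.73, 7.70 and 7.81 at 24 °C. The groups were clearly separate, with the wider spread at 14 °C. The log2 fold change was 1.13 (SE 0.11, adjusted p = 0.000173), a 2.19-fold difference. With the scanner software's corrected signal it was 1.77. The gene it overlaps, CG43367, had a probe that was above background on 0 of 6 arrays, with mean levels of 6.38 at 14 °C and 6.39 at 24 °C. Of the 16 genes that overlap an RNA with a probe that passed, CG43367 was the only one with a probe that could be named here.

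Hsromega (3R) is a long non-coding RNA that is known for its induction by heat in flies and for organizing nuclear bodies that hold RNA-binding proteins. All 4 of its probes, 2 for each of 2 accessions, had higher levels at 14 °C, and 3 of the 4 passed, though not with the scanner software's corrected signal (adjusted p = 0.0114 to 0.0208). Probe 1 had levels of 14.90, 14.43 and 14.86 at 14 °C, against 14.01, 13.98 and 13.96 at 24 °C. Replicate 2 at 14 °C was the lowest of its temperature and still above the arrays at 24 °C. The log2 fold change was 0.72 (SE 0.12, adjusted p = 0.0024).

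Probe 2 of Hsromega, for the same accession NR_002067, had 15.36, 14.84 and 15.30 at 14 °C, against 14.54, 14.46 and 14.44 at 24 °C, and gave 0.67 (SE 0.12, adjusted p = 0.0048). Probe 4, for NR_002068, had levels of 10.56, 11.04 and 10.63 at 14 °C, against 9.97, 9.56 and 9.81 at 24 °C, which gives 0.92 on the log2 scale (SE 0.14, adjusted p = 0.0018). Probe 3, also for NR_002068, had levels of 11.79, 12.20 and 12.52 at 14 °C, against 11.70, 10.98 and 11.64 at 24 °C. These groups did not overlap, but the spread was wide, and the log2 fold change of 0.72 (SE 0.22) did not pass (adjusted p = 0.038); with the replicates paired its adjusted p was 0.0063. Probe 1 of Hsromega no longer passed on omission of replicate 1 at 14 °C (0.66), of replicate 1 at 24 °C (0.74) or of replicate 2 at 24 °C (0.72), where the adjusted p was 0.013, 0.014 and 0.013. The call for probe 2 was lost without any 1 of 5 arrays, all but replicate 2 at 14 °C, with log2 fold changes of 0.58 to 0.70.

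In contrast, the probes for roX1 and roX2 did not pass. These X-linked RNAs are components of the dosage compensation complex, which raises transcription of the male X chromosome. The roX1 probe with the highest fold change (probe 3) had levels of 10.49, 10.69 and 10.24 at 14 °C, against 10.31, 10.33 and 10.28 at 24 °C, and these groups overlapped. The log2 fold changes of the 4 roX1 probes were 0.16, 0.08, -0.03 and -0.05, with 95% intervals that together spanned -0.28 to 0.41. The roX2 probes gave -0.01 (95% interval -0.18 to 0.16) and -0.25 (-0.44 to -0.07, adjusted p = 0.046). In the probe with -0.25 the levels were 7.20, 7.41 and 7.29 at 14 °C, against 7.57, 7.61 and 7.57 at 24 °C, without overlap.

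The snoRNA host genes Uhg2, Uhg3 and Uhg5 are transcripts from whose introns small nucleolar RNAs are released. Both probes for Uhg3, on 2L, passed. One had levels of 13.97, 13.81 and 13.81 at 14 °C, against 13.42, 13.33 and 13.32 at 24 °C (log2 fold change 0.50, SE 0.08, adjusted p = 0.0024), and the other had 13.62, 13.55 and 13.51 at 14 °C, against 13.26, 13.02 and 13.03 at 24 °C (0.45, SE 0.09, adjusted p = 0.0065). The groups were separate in both probes. Each Uhg3 probe lost its call on omission of any 1 of 4 arrays, with log2 fold changes of 0.41 to 0.53. These were replicate 1 at 14 °C and replicates 2 and 3 at 24 °C for both probes, with replicate 1 at 24 °C for the first and replicate 2 at 14 °C for the second. The 3 snoRNA genes that Uhg3 overlaps all belong to the Me28S-C2645 family, whose names give a methylation site of 28S ribosomal RNA. For Uhg2 the log2 fold change was 0.20 (SE 0.10, adjusted p = 0.19), and for Uhg5, which overlaps 11 snoRNA genes, it was 0.07 (SE 0.15, adjusted p = 0.80).

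Further RNAs that passed had changes under 2-fold. The transcript lncRNA:mimi (3R), which overlaps mir-9381, had levels of 13.09, 12.93 and 13.08 at 14 °C, against 12.49, 12.38 and 12.45 at 24 °C, and its log2 fold change was 0.58 (SE 0.08, adjusted p = 0.0012). Without replicate 2 at 24 °C it was 0.555 and did not pass (adjusted p = 0.01). The antisense RNA asRNA:CR43468 (2R), which overlaps Lfg, AspRS and Nmda1, had levels of 9.71, 9.37 and 9.45 at 14 °C, against 8.94, 8.94 and 9.08 at 24 °C (0.48, SE 0.10, adjusted p = 0.0067). For lncRNA:CR43301 (3R), which overlaps no gene, they were 8.65, 8.54 and 8.43 at 14 °C, against 7.99, 8.08 and 8.04 at 24 °C (0.44, SE 0.08, adjusted p = 0.0044). The groups did not overlap for either RNA. Both lost their calls on omission of replicate 1 at 14 °C or of any array at 24 °C (0.40 to 0.53), and asRNA:CR43468 also on omission of replicate 3 at 14 °C (0.51) and with the slide as a block (adjusted p = 0.0104).

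For 4 RNAs some detected probes passed and others did not, namely lncRNA:CR31044 and Hsromega above and the following. The antisense RNA asRNA:CR43159 (3L), which overlaps yellow-k, gave 0.50 (SE 0.09, adjusted p = 0.0047) with one probe and 0.31 (SE 0.07, adjusted p = 0.015) with the other. The probe with 0.50 passed with all arrays, but lost its call without any 1 of 5 arrays, all but replicate 2 at 14 °C (0.42 to 0.54), and its direction turned with scaling to the 75th percentile (-0.08, against a median of -0.27 for all probes). Of 4 detected probes for lncRNA:CR42862 (3L), which overlaps CG33229, 1 passed (0.44, SE 0.09, adjusted p = 0.0071) and the others had 0.41, 0.29 and 0.08, the last for another accession of the same gene. The call at 0.44 was lost without any 1 of 5 arrays, all but replicate 1 at 14 °C, with 0.39 to 0.45, and with the slide as a block (adjusted p = 0.0104). With the scanner software's corrected signal the asRNA:CR43159 probes had 1.07 (adjusted p = 0.0124) and 1.13 (adjusted p = 0.00396), so that the other probe was the one that passed. The 12 antisense RNA probes that did not pass had log2 fold changes of -0.31 to 0.31.

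Of the 7 RNAs with a detected probe that overlap a microRNA gene, 4 had no probe that passed. The transcript lncRNA:CR43334, which overlaps the microRNA gene bantam (mir-ban), a promoter of tissue growth, had levels of 13.10, 13.15 and 13.04 at 14 °C, against 13.19, 12.96 and 12.88 at 24 °C. The groups overlapped, and the log2 fold change was 0.08 (SE 0.10, adjusted p = 0.58). For lncRNA:CR43459, which overlaps mir-277 and mir-34, it was 0.36 (adjusted p = 0.16), for lncRNA:CR43626, which overlaps mir-282, 0.01 (adjusted p = 0.99), and for asRNA:CR17025, which overlaps mir-252, -0.04 (adjusted p = 0.83). Among RNAs with a described role in the nervous system, sphinx, which affects male courtship, had -0.22 (SE 0.13, adjusted p = 0.24), and cherub, an RNA of neural stem cell tumours, had 0.03 (SE 0.08, adjusted p = 0.82).

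A fall that passed was seen for a single probe. The small Cajal body RNA scaRNA:MeU5-C46 (3R), whose name gives U5 snRNA as the RNA it modifies, had levels of 8.84, 8.97 and 8.65 at 14 °C, against 9.54, 9.59 and 9.40 at 24 °C. The arrays at 14 °C were all below those at 24 °C. The log2 fold change was -0.65 (SE 0.10, adjusted p = 0.0018). On omission of replicate 1 at 24 °C it was -0.63 and did not pass (adjusted p = 0.013), and the same held for replicate 2 at 24 °C (-0.61, adjusted p = 0.013). The gene lies within a region that overlaps CG1142, and the strand of the probe was not used here.

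The other 11 structural small RNA probes did not pass, with log2 fold changes of -0.19 to 0.68 and wide errors. According to the study's methods, the RNA was purified with the RNeasy MiniKit and labelled with the Low-Input QuickAmp kit. How these steps recover and label small RNAs was not tested, either for these probes or for scaRNA:MeU5-C46. The signals may therefore differ from the levels in the cells. For the major spliceosome, snRNA:U1:82Eb had 0.68 (SE 0.25, adjusted p = 0.081), snRNA:U1:21D 0.28 (SE 0.26) and snRNA:U2:34ABb -0.02 (SE 0.33), and for the minor spliceosome, U11 had -0.04 (SE 0.14) and U12 0.06 (SE 0.14). The 7SL RNA of the signal recognition particle had -0.06 (SE 0.26), and the RNA of RNase MRP, an enzyme of ribosomal RNA processing, had 0.00 (SE 0.17). Of 2 probes for U3 snoRNA, which acts in early cleavage of the ribosomal RNA precursor, that for snoRNA:U3:54Aa had 0.55 (SE 0.19, adjusted p = 0.066) and that for snoRNA:U3:9B 0.16 (SE 0.47). The guide RNAs for pseudouridine in 28S ribosomal RNA, snoRNA:Psi28S-2566 and snoRNA:Psi28S-291, had 0.18 (SE 0.23) and -0.19 (SE 0.21). With the replicates paired, snRNA:U1:82Eb (adjusted p = 0.0053) and snoRNA:U3:54Aa (adjusted p = 0.00082) passed at unchanged fold changes. The probe for snRNA:U1:82Eb also passed without replicate 3 at 14 °C (0.99, adjusted p = 0.0049). As replicate 3 was its lowest array at 14 °C, this omission raises the fold change by construction and is no evidence of a rise. Without replicate 2 at 14 °C, its highest array there, the probe had 0.40 (adjusted p = 0.20). The last part of names such as snRNA:U1:82Eb gives the cytological region of the gene. The U1, U2 and U3 genes have near-identical copies, so that signal on such a probe can come from several genes.

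These small RNAs varied together between arrays. In all 12 probes replicate 2 had the highest level of the 3 arrays at 14 °C, against 36 of the 91 other detected non-coding RNA probes (39.6%) and 31.3% of all detected probes. At 24 °C, replicate 3 had the lowest level in 11 of the 12 probes, against 26 of the 91 others and 31.2% of all. Replicate 3 was also the lowest at 14 °C in 9 of the 12 probes (75%), against 34.1% of the others and 33% of all. The snRNA:U2:34ABb, for example, had levels of 13.67, 15.14 and 13.91 at 14 °C, against 14.40, 14.37 and 14.00 at 24 °C. The snoRNA:U3:9B had 11.14, 12.58 and 10.78 at 14 °C, against 11.82, 11.82 and 10.39 at 24 °C. The spread between replicates thus exceeded the difference between the temperatures for both.

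The median SD within a temperature was 0.42 for the 12 probes, against 0.155 for the 103 detected non-coding RNA probes and 0.121 for all detected probes. The median deviation of replicate 2 from the mean at 14 °C was 0.47 for the 12 probes, and this was the array with the lowest 75th percentile of the signal. For replicate 3 it was -0.357 at 14 °C and -0.22 at 24 °C, and replicate 3 had the highest 75th percentile at 24 °C but not at 14 °C. There replicate 1 had the highest (1684.5, against 1542 in replicate 3), with a median deviation of -0.15. At 24 °C, replicates 1 and 2, with 75th percentiles of 1394 and 1470, had median deviations of 0.173 and 0.125. With all arrays the median log2 fold change of the 12 probes was 0.03, with 6 higher and 6 lower at 14 °C. Without replicate 2 at 14 °C the median was -0.21, with 2 higher and 10 lower, and snRNA:U2:34ABb then had -0.48 (adjusted p = 0.042) and 7SL RNA -0.41 (adjusted p = 0.063). As this array was the highest at 14 °C in all 12 probes, its omission lowers their fold changes by construction. The shift is therefore no evidence of a fall at 14 °C, and replicate 2 at 24 °C stayed in this fit. The fall of scaRNA:MeU5-C46 remained past the threshold without replicate 2 at 14 °C (-0.72, adjusted p = 0.0018), an omission that could only deepen it. The part of array brightness in this pattern was not tested.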

How the data were processed

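Scanner files deposited by the authors give a linear, unnormalized intensity for each spot, and yes or no flags (other) for control spots, outliers, saturation and signal well above background. The scanner software was Agilent Feature Extraction 10.7.3.1 per the file headers. Processed values of the authors for each probe were deposited as well, whose scale is not stated and which were found to be log2 by comparison with the scanner files. Column medians were 7.015 to 7.03, and the correlation with fold changes from the scanner files was 0.994 across detected probes, with a largest difference of 0.204 for a non-coding RNA probe. According to its methods, the study applied normexp, quantile and surrogate variable steps and summarized repeated spots by their median.

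Here, median spot intensities were corrected with normexp (offset 50) against the median background, control and outlier spots were left out, log2 values were quantile-normalized and repeated spots were summarized by their median. Temperatures were compared on all detected probes with limma 3.58.1 in R 4.3.3 (lmFit and eBayes, two-sided, no covariates), with Benjamini-Hochberg adjustment. The number of arrays (6) limits the precision. For 2 unnamed probes 1 array was left out because its only spot was an outlier, so that their fits had 5 arrays. On simulated data with known changes the fit was checked first.

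The labels number the replicates but do not state that equal numbers are paired. Deviations from the temperature means of arrays with the same number correlated with r = 0.2, 0.302 and 0.394 across probes, against -0.305 to 0.0545 for unlike numbers. Arrays with equal numbers thus deviated alike, but as the labels state no pairing, the main fit was unpaired. A fit with this pairing was an alternative. In it 20 of the 103 probes passed (19.4%, against 17.7% of all detected probes), against 15 in the main fit. Names, gene types, chromosomes and overlapping genes came from the RefSeq table of the assembly Release 6 plus ISO1 MT; 138 of 173 accessions matched. The array design names another build, dm3, so no coordinates are given, and probe sequences and strands were not used, so that an RNA and a gene on the opposite strand cannot be told apart. The members, lists and tests were chosen with earlier results of these data known. By rule, all CoolUp and CoolDown probes, up to 8 rises and 8 falls that passed and the members of the lists (roX, Hsromega, snoRNA hosts, structural small RNAs, Bithorax complex, RNAs with a described role) are named. Of the highest probes 2 are named, fewer than planned. The rule also covered antisense RNAs, but only those with a probe that passed or an overlapping microRNA gene are named. The remaining antisense RNAs are given as a range. NR_026639, the other transcripts that passed in any fit, other probes of these RNAs and RNAs that overlap microRNA genes were chosen after their values were seen.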

Additional observations from a re-analysis of the deposited data

How the results depend on the processing

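The 15 probes that passed and the 4 CoolUp probes kept their calls with the processed values of the authors, where 14.6% passed, against 11.7% of all detected probes. The same held without a filter on dim probes (7.21%, against 6.36%) and with probes above background on all 6 arrays only (85 detected; 17.6%, against 13%). It also held with an intensity trend (17 passed; 16.5%, against 11.9%) and with the mean over repeated spots (14.6%, against 11.9%). Requiring all 3 arrays of either temperature left 92 detected. With the replicate block, 20 passed (19.4%; 18 higher, 2 lower), against 17.7% of all detected probes, and 4 were CoolUp. All 15 were kept, and the 5 gained were Hsromega probe 3, snRNA:U1:82Eb, snoRNA:U3:54Aa, lncRNA:CR32218 (0.53) and lncRNA:CR43242 (-0.39). With the slide block, 13 passed (12.6%, against 9.65% of all), without asRNA:CR43468 and lncRNA:CR42862. On slide 2 alone, a setting chosen after seeing the data, 2 passed (1.94%, against 0.356% of all) and the same 2 were CoolUp. Slide 1 holds 1 array per temperature. The scanner software's corrected signal gave 9 passed (6 higher, 3 lower), against 14 higher and 1 lower in the comparison above. This was 8.74%, against 6.88% of all. With this signal 6 were called, against 647 of all 18813 detected probes. Scaling to the median or to the 75th percentile gave 0 passed and 0 called and moved the median of all probes by 0.47 and -0.27. Relative to that median the 15 probes kept their directions (-0.59 to 3.03). Both scalings shift each array by 1 constant, so these relative values are the same under either by construction and are not 2 separate checks. Without this correction asRNA:CR43159 turned with scaling to the 75th percentile (-0.0751). A minimum fold change of 1.5 gave 8 called (7 higher, 1 lower), a count without a share over all detected probes to set it against. Leaving out 1 array gave 5 to 13 passed (4.85% to 12.6%), against 4.27% to 12% of all detected probes. Without replicate 3 at 14 °C the share was 11.7%, against 12% of all. With 1 array left out, 4 to 5 were called, against 170 to 191 of all detected probes, and the cause was not tested. Signals near background limit the probes just inside the criterion of detection.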
